A study of Drosophila melanogaster with 2 samples.

Results

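The 69C target is a 674 kb stretch of euchromatin on chromosome arm 3L, from 12170682 to 12844681 in the dm3 build, that is stained by an Oligopaint FISH probe of that name. It was taken by its coordinates, without any measured value. It holds 168 whole 4 kb bins on each homolog, of 6136 on 3L and 29759 on the 5 large arms, and 673 whole 1 kb bins. Contacts were measured by haplotype-resolved Hi-C in 2 biological replicates of whole, pooled embryos of 2 to 4 h. All were hybrids of a single cross, of DGRP-057 mothers and DGRP-439 fathers, both inbred wild-derived lines with no transgene or treatment named in the labels. There was 1 condition, so the values of the target are set beside those of other places in the same libraries.

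In Drosophila, maternal and paternal chromosomes come to lie side by side in somatic nuclei, and this pairing is established in the early embryo. Hi-C joins pieces of DNA that are near each other in the nucleus. Where parental sequences differ, each end of a joined pair can be given to 1 homolog. A cis pair has both ends on the same homolog and a trans-homolog pair has an end on each. Within a chromosome, contacts fall into domains, stretches that touch themselves more often than their neighbours, and the places between them are boundaries. Polytene bands 69C and 69D are known for the Iroquois complex, the genes ara, caup and mirr, which encode homeodomain transcription factors of dorsal and sensory patterning. RefSeq's Release 6 table lists the 3 genes in that order on 3L. They were not placed on the dm3 map here.

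The files held 24390496 pairs in replicate 1 and 24659056 in replicate 2. Of these, 184699 and 183985 had both ends in the target, and 82.3% and 80.1% of them were separated by less than 1 kb, a range dominated by unligated fragments. Contacts were counted from 3 kb. In replicate 1 the target then held 13599 cis maternal, 12865 cis paternal and 1401 trans-homolog pairs. In replicate 2 it held 15697, 14356 and 1438. The maternal homolog took 51.1% and 51.7% of all read ends in the target, so both homologs were read to nearly the same depth. Cis pairs from 3 kb were less even, with paternal counts at 0.946 and 0.915 of the maternal ones. Among 1 kb bins of the target, 633 maternal and 627 paternal ones of 673 had enough contacts to be used, 94.1% and 93.2%, against 75.0% of 1 kb bins on all of 3L for each homolog. All but 1 of the 4 kb bins were usable on both homologs, and the exception began at 12796001.

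The cis domains of the target were the same on both homologs at most places. The insulation score of a 4 kb bin is the log2 mean contact between the 10 bins to its left and the 10 to its right, so a minimum marks a boundary. It was computed on the maps of both replicates together and is given relative to the median of 3L. At a prominence of at least 0.3, the maternal homolog had 5 boundaries in the 167 scored bins of the target, 2.99% of them, and 4.58% of scored bins were called on 3L. The paternal homolog had 7, 4.19% against 4.69% on 3L. The other 31 windows of 3L of the same length and with enough pairs held 5 to 9 maternal boundaries with a median of 8, and 28 of them held more than the target. For paternal boundaries they held 5 to 11, and 17 held more. At these settings the maternal count was the lowest of any window, shared with 3 others, whereas the paternal count was in the middle. With an insulation window of 5 bins both homologs had 13 boundaries, 7.78% of bins, against 8.2% of maternal and 8.35% of paternal bins called on 3L. The low maternal count was therefore close to the background of the arm at that setting.

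All 5 maternal boundaries had a paternal partner within 4 bins, and these places are numbered here from left to right. Boundary 1 lay in the bin from 12256001 to 12260000, boundary 2 from 12408001 to 12412000, boundary 3 from 12524001 to 12528000, boundary 4 from 12644001 to 12648000 and boundary 5 from 12724001 to 12728000. On the 1 kb map of both homologs, the deepest bin within 4 bins of each began at 12251001, 12411001, 12519001, 12649001 and 12727001. The other paternal boundaries lay at 12328001 and 12492001. All 5 were called on both homologs in each replicate alone. At a stricter prominence of 0.5 all 5 were still called on both homologs, and boundary 4 was missed on the maternal homolog under 1 of the 6 settings tried.

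The 5 boundaries differed widely in score. At boundary 5 the maternal score was -1.47 in replicate 1 and -1.87 in replicate 2, and the paternal score was -1.24 and -0.72. Its mean over the homologs in the pooled maps, -1.33, was the 9th deepest of the 184 boundaries shared by the homologs on 3L. Boundary 2 had maternal scores of -0.76 and -1.24 and paternal scores of -0.91 and -1.21, which ranked it 37th. Boundary 3 had maternal scores of -0.97 and -1.04 and paternal scores of -0.90 and -0.78, and ranked 49th. Boundary 1 was shallower, with -0.77 and -0.69 on the maternal and -0.32 and -0.43 on the paternal homolog. Boundary 4 had scores near the median of 3L, with 0.02 and -0.06 on the maternal and 0.01 and -0.11 on the paternal homolog, and ranked 175th. It was still a clear dip against its surroundings, with a pooled prominence of 0.62 on the maternal and 0.54 on the paternal homolog. By score, boundary 5 was thus among the lowest of the arm and boundary 4 among the highest.

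**Figure D1:**
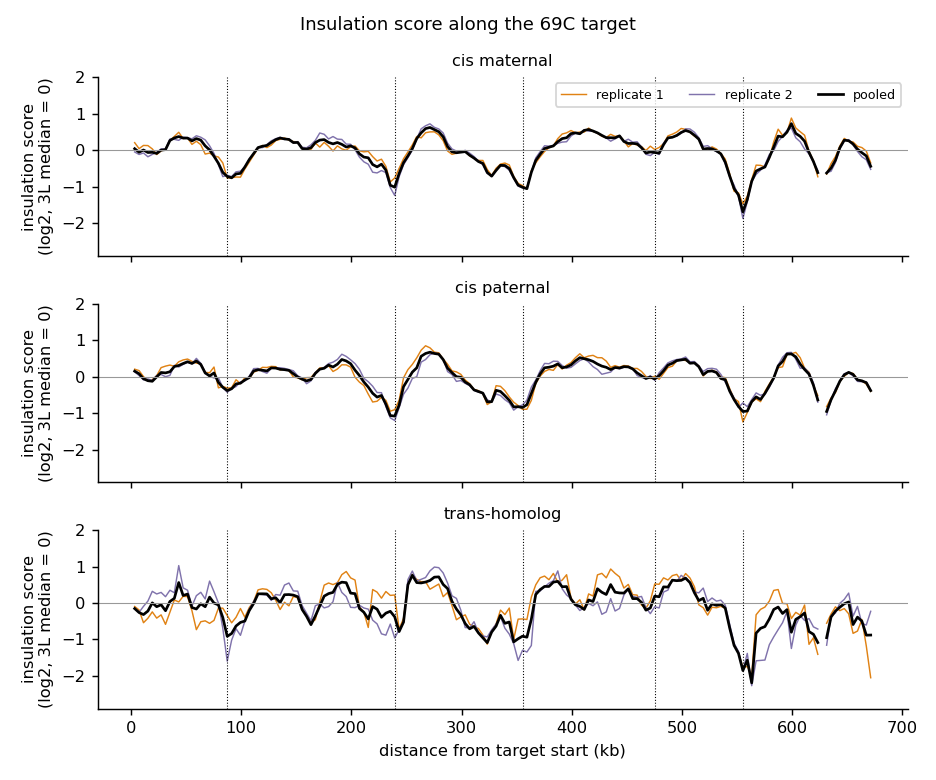
Insulation score (log2, median of 3L set to 0) of the cis maternal, cis paternal and trans-homolog maps along the target, in 4 kb bins against the distance from its start in kb. Coloured lines are the replicates, the black line is the pooled map, and dotted lines mark the 5 boundaries; the cis tracks dip together at each, the maternal one deepest at boundary 5 and the pooled paternal one at boundary 2, and the gap is the masked bin.

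Along the whole target the insulation scores of both homologs ran close together. Over the 167 bins their Pearson correlation was 0.93 in the pooled maps, 0.88 in replicate 1 and 0.90 in replicate 2. On 3L it was 0.82 in the pooled maps. Neighbouring bins share most of their window and both tracks come from the same libraries, so the bins are not independent. The median absolute difference between homologs was 0.10, and the largest lay at boundary 5, where the maternal score was lower by 0.23 in replicate 1 and 1.15 in replicate 2. The replicates differed more than 1.5 times in this value, so its size was not settled. A further minimum at 12800001 was seen on both homologs, -0.63 on the maternal and -0.96 on the paternal, but it was next to the masked bin and was not counted.

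The boundaries cut the target into 6 domains, of which the first and last were cut short by its ends. Domains 1 to 6 were 84, 148, 112, 116, 76 and 116 kb long. Contacts between them are given as observed over expected, the corrected contacts over the mean of 3L at the same separation. Domains 5 and 6, either side of boundary 5, touched each other in cis at 0.44 of the expected level in replicate 1 and 0.45 in replicate 2, from 376 and 419 pairs. Domains 4 and 5, either side of boundary 4, touched at 1.13 in both replicates, from 1251 and 1333 pairs. This was as much as domain 4 touched itself (1.12 and 1.13) and domain 5 touched itself (1.11 and 1.15). Domains 3 and 4 touched at 0.58 and 0.53, and domains 2 and 3 at 0.72 and 0.68. Domains 1 and 2 touched at 0.95 and 0.88. Contacts between neighbours were therefore lowest across boundary 5 and highest across boundary 4, and domains 4 and 5 formed 1 block of contacts reaching from boundary 3 to boundary 5.

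**Figure D2:**
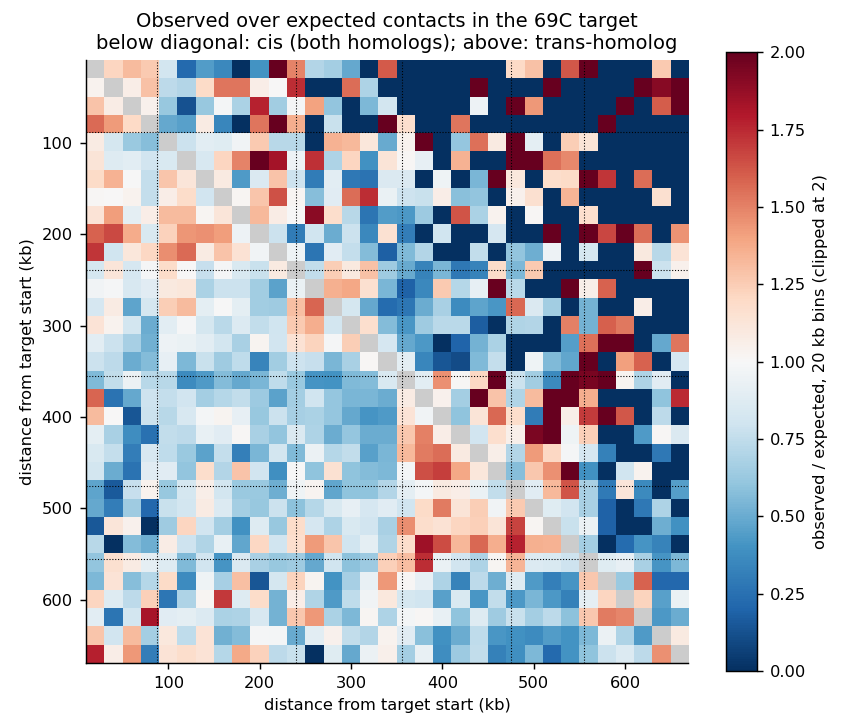
Observed over expected contacts of the target in 20 kb bins of the pooled replicates, with distance from the target's start in kb on both axes; cis contacts of both homologs are below the diagonal and trans-homolog contacts above it. Dotted lines mark the 5 boundaries; the red block in cis between boundaries 3 and 5 holds domains 4 and 5, and dark blue trans-homolog pixels far from the diagonal mostly hold 0 pairs.

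Of pairs of 20 kb bins at least 60 kb apart with at least 20 cis pairs, 4 of the 5 with the highest cis value lay inside that block or reached its right edge. The highest joined the bins starting at 12540001 and 12700001, 160 kb apart, with 2.26 times the expected contacts in replicate 1 and 1.44 in replicate 2, from 30 and 21 pairs. The bins at 12640001 and 12700001 had 1.81 and 1.73, from 106 and 122 pairs. The bins at 12560001 and 12620001, which belong to domain 4, had 2.02 and 1.39, from 74 and 60 pairs. The bins at 12540001 and 12720001 had 2.11 and 1.40, and those at 12180001 and 12380001, in domains 1 and 2, had 1.96 and 1.47. Each was above the expected level in both replicates, but they were chosen as the highest of many and their sizes carry that choice. Trans-homolog pairs at the same 5 places numbered 3 to 15 over both replicates, too few for a comparison.

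Of contacts with both ends on 3L, 55.4% and 54.6% of the target's cis contacts stayed inside it, and 27.5% and 26.8% of its trans-homolog contacts did. Contacts with 3R were left out of these shares. Trans-homolog contacts were thus spread more widely along 3L than cis contacts. The remaining cis and trans-homolog contacts reached the rest of 3L.

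Trans-homolog contacts in the target were somewhat fewer, relative to cis, than in most of 3L. At separations of 3 to 100 kb, replicate 1 had 1144 trans-homolog and 22836 cis pairs, a ratio of 5.01% (exact 95% counting interval 4.72 to 5.32). Replicate 2 had 1181 and 26203, a ratio of 4.51% (4.25 to 4.78). The mean was 4.76% ± 0.36 (SD, n = 2). The other 31 windows had a median of 5.48% in replicate 1 and 4.90% in replicate 2, so the target lay at 0.915 and 0.920 of them. By the mean it ranked 27th of 32 from the highest, and by replicate 28th and 23rd. The middle of the other windows ran from 4.93% to 5.58% between quartiles and the whole from 4.07% to 8.28%, so the target lay below the lower quartile. Both the target and the median window were lower in replicate 2, and the target was below that median in each replicate. Contacts are averages over nuclei, so fewer paired nuclei and looser pairing in each cannot be told apart. Its rank was between 24th and 30th with separations of 10 to 100 kb, with a mapping quality of at least 30, with same-strand pairs only, and with misassigned pairs subtracted. With 2 replicates no test of this difference across replicates was made, and the counting intervals cover counting error only.

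Other euchromatic Oligopaint targets gave values on either side. The 28B target on 2L had 6.98% in replicate 1 and 6.27% in replicate 2, and the 69C target stood at 0.718 and 0.719 of these. The 3R19 target had 4.86% and 4.27%, so the 69C target stood at 1.03 and 1.06 of it. The 3R7 target had a mean of 4.98% ± 0.59 (SD, n = 2), and the 69C target stood at 0.928 and 0.987 of it. The 69C target was lower than 28B in both replicates by more than their spread. It was above 3R19 and below 3R7 in both replicates, and its mean distance from each was within the spread between replicates. Each of these targets was lower in replicate 2, so that spread includes a shift they shared.

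Pairs given to the wrong homolog would appear as trans-homolog. Inward pairs of 300 to 600 bp are nearly all unligated fragments of 1 homolog, so the ratio of trans-homolog to cis pairs among them is an upper estimate of misassignment, since some can be true contacts. In the target it was 169 over 93951 pairs in replicate 1 and 174 over 94117 in replicate 2, or 0.182% ± 0.004 (SD, n = 2), near the median of 0.184% over the other windows. Subtracting this upper estimate left a ratio of 4.58% ± 0.36, a change smaller than the spread between replicates.

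The ratio of trans-homolog to cis contacts rose with separation. At 3 to 10 kb it was 4.04% in replicate 1 and 3.27% in replicate 2. At 100 to 300 kb it was 6.82% and 6.78%, from 207 and 219 trans-homolog pairs. The median of the other windows was 4.44% and 3.70% at the short range and 8.08% and 7.64% at the long range, so the rise was seen along the whole arm. Over the 18 separation ranges from 3162 to 562341 bp, the target lay below the median of the other windows in 16 ranges of replicate 1 and 15 of replicate 2, and in 13 in both. The target thus sat slightly below the arm at most separations, and no single distance carried the difference.

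**Figure D3:**
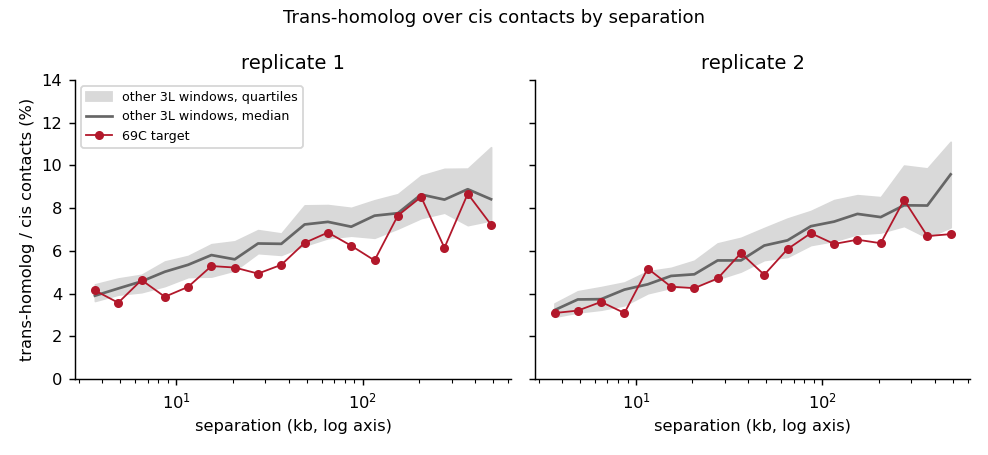
Trans-homolog contacts as a percentage of cis contacts (vertical axis) by separation in kb (logarithmic axis) in the target (red) and in the 31 other windows of 3L (grey line, median; shading, quartiles), 1 panel for each replicate. The ratio rises with separation in both, and the red points lie below the grey line in 16 of 18 ranges in replicate 1 and 15 in replicate 2.

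As contact frequency, trans-homolog contacts at 3 to 10 kb were 30.1 times as frequent as at 100 to 300 kb in replicate 1 and 27.0 times in replicate 2, a mean of 28.5 ± 2.21 (SD, n = 2). Cis contacts fell more steeply, by factors of 50.9 and 55.9. The median of the other windows was 27.9 for trans-homolog and 50.2 for cis contacts, and the target ranked 12th and 15th of 32. The decay of the target was that of an ordinary stretch of 3L. Compared with contacts between the target and chromosome 2, which show the level between unrelated chromosomes, trans-homolog contacts at 3 to 10 kb were 618 and 494 times as frequent, and at 100 to 300 kb still 20.5 and 18.3 times. Among trans-homolog pairs of the target the maternal end lay to the left in 52.6% of 1401 pairs (95% Wilson interval 49.99 to 55.2) and 50.2% of 1438 pairs (47.6 to 52.8). Both intervals include an equal split, so no preferred order was detectable at this depth.

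Boundaries were also seen in trans. The trans-homolog map had 11 boundaries in the target, 6.59% of 167 bins, and 8.17% of bins were called on 3L. Replicates 1 and 2 alone had 15 and 14. All 5 numbered boundaries had a trans-homolog boundary within 4 bins, and so did all 7 paternal ones. On 3L, 83.4% of maternal and 82.6% of paternal boundaries did. In the target 93 of the 167 bins, 55.7%, lay that close to a trans-homolog boundary, so the full count over 5 or 7 places is no sign of a closer match than on the arm. A cis boundary of either homolog was found within 4 bins for 7 of the 11, or 63.6%, and on all of 3L the share was 63.5%. The other 4, at 12228001, 12384001, 12580001 and 12768001, had no cis boundary within 4 bins. The overlap in the target was that of the arm. With an insulation window of 5 bins the target had 21 trans-homolog boundaries, 12.6% of bins, against 14.2% on 3L.

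The deepest trans-homolog boundary of the pooled map and of replicate 2 lay at boundary 5. In replicate 1 a minimum at 12840001, at the right end of the target, was slightly deeper, -2.05, and was not called in the pooled map. In the bin starting at 12732001, 8 kb to its right, the trans-homolog insulation score was -2.00 in replicate 1 and -2.27 in replicate 2. In the boundary bin itself it was -1.77 and -1.84, below the cis scores of either homolog in replicate 1 and of the paternal homolog in replicate 2. Each track is given relative to its own median, so these scores do not show that insulation was stronger in trans. Across boundary 5, within 40 kb on either side, 147 and 158 cis pairs were found against 994 and 1170 on the sides, and 7 and 5 trans-homolog pairs against 33 and 37. The share of pairs that crossed was 12.9% in replicate 1 and 11.9% in replicate 2 in cis. In trans it was 17.5% and 11.9%, so it was not lower than in cis, and it rests on those 7 and 5 pairs. Between domains 5 and 6 trans-homolog contacts were at 0.33 and 0.23 of the expected level, the lowest of any neighbouring domains in both replicates. Between domains 4 and 5, across boundary 4, they were at 1.41 and 1.16, the highest of neighbouring domains. The order of these neighbours at its ends was thus the same in trans as in cis. At boundary 1 the replicates differed, with -0.34 and -1.59. They also differed in the bins of boundary 2 (0.22 and -0.96), boundary 3 (-0.44 and -1.29) and boundary 4 (0.52 and -0.10). At the trans-homolog boundary nearest to each of these, the replicates were closer. The scores there were -0.72 and -0.73 for boundary 2, -0.99 and -1.12 for boundary 3, and -0.14 and -0.13 for boundary 4.

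Over the 167 bins of the pooled maps, the trans-homolog insulation score had Pearson correlations of 0.76 with the cis maternal and 0.76 with the cis paternal score. On 3L they were 0.52 and 0.52. In the target they were 0.58 and 0.56 in replicate 1 and 0.75 and 0.72 in replicate 2, so their size was not settled. The target was also read more deeply, with a median of 135 maternal and 128 paternal contacts per 1 kb bin against 70 and 67 on 3L. The part of depth in this, and in the correlation between homologs, was not tested. The bins share windows and libraries, and correction of the maps is common to the 3 tracks.

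Local pairing was described by the pairing score, the log2 mean of corrected trans-homolog contacts within a window of 28 kb around each 4 kb bin. The median over the 167 scored bins of the target was -9.99 in replicate 1 and -10.13 in replicate 2, and that of 3L was -9.83 and -10.09. The target lay lower by 0.16 and 0.05, and in the pooled map by 0.13, which ranked it 23rd of 32 windows. This small difference had no settled direction: it was 0.21 without iterative correction, 0.06 with contacts from 10 kb and 0.02 with a mapping quality of at least 30. Of the 167 bins, 96 in replicate 1 and 90 in replicate 2 lay below the median of 3L. Below it in both were 59 bins, 35.3%, against 33.7% of 4819 bins of 3L.

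The pairing score spanned a narrower range along the target than along most windows of the arm. Between the 5th and 95th percentile the pairing score of the target spanned 1.76 in the pooled map, 2.11 in replicate 1 and 2.27 in replicate 2. The median span of the other windows was 2.58 in the pooled map, and the target ranked 30th of 32, and 29th in each replicate. Such spans include counting noise and were narrower in the pooled map than in either replicate. The target had more pairs than most windows, ranking 11th for trans-homolog and 9th for cis pairs, and the part of depth in its narrow span was not tested. Scores of single bins repeated only in part: the Pearson correlation between replicates over the target was 0.30, against 0.49 over 4819 bins of 3L. A single bin of the target therefore says little by itself. Pair counts are given with the single bins described below, and several of them rest on few trans-homolog pairs.

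The highest pairing score was found just to the left of boundary 3. The 5 highest bins were consecutive, from 12504001 to 12524000, and their windows overlap, so they are 1 place. The highest, from 12512001 to 12516000, had -8.38 in replicate 1 and -8.94 in replicate 2, at the 96.3rd and 92.4th percentile of 3L. Its window held 61 trans-homolog and 784 cis pairs in replicate 1, a ratio of 7.78% (exact 95% interval 5.89 to 10.1), and 47 and 867 in replicate 2, a ratio of 5.42% (3.95 to 7.27). Misassignment in its domain was 0.331% and 0.326%, the highest of the 6 domains, which at this upper estimate would give up to 2.59 and 2.83 of these trans-homolog pairs. The score of the 5 bins stayed above the median of 3L under each of 5 other settings, by 0.63 to 2.07, but under 3 of them, and in replicate 2 alone, another bin of the target was higher.

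**Figure D4:**
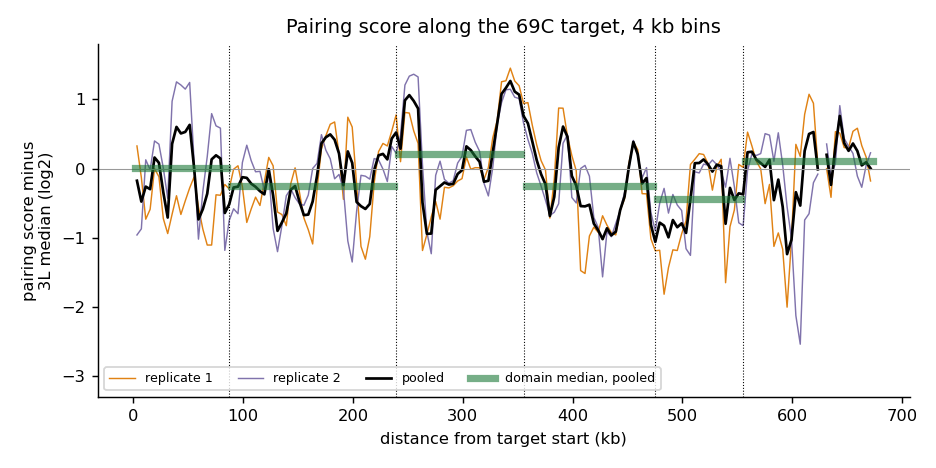
Pairing score of 4 kb bins minus the median of 3L (log2) against the distance from the target's start in kb. Coloured lines are the replicates, the black line is the pooled map, green bars are medians of the 6 domains and dotted lines mark the boundaries; the highest place lies just left of boundary 3 and the replicates part at many single bins.

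The lowest bins were not 1 place. The lowest, from 12764001 to 12768000 in domain 6, had -11.84 in replicate 1 and -10.64 in replicate 2, but its window held only 2 and 3 trans-homolog pairs over 123 and 111 cis pairs. Next were the bin of boundary 4 (-11.02 and -10.99, from 5 and 8 trans-homolog pairs) and the bin from 12768001 (-10.86 and -11.10, from 6 and 6). The bin from 12596001 to 12600000 in domain 4 was the one read deeply. It had -10.52 and -11.65, from 25 trans-homolog and 718 cis pairs in replicate 1 and 16 and 865 in replicate 2. The ratio there was 3.48% (2.24 to 5.18) and 1.85% (1.05 to 3.02). Over both replicates this bin had 41 trans-homolog pairs over 1583 cis pairs, 2.59% (1.85 to 3.53), and the highest bin had 108 over 1651, 6.54% (5.33 to 7.95). At nearly equal cis depth, the counting intervals of the highest bin and of this low bin were apart over both replicates and in each replicate. The bins were chosen for their scores, so this is a description. Without iterative correction the score of the low bin was 0.81 above the median of 3L, and it was below that median under the other settings run. The last of the 5 lowest, from 12656001 in domain 5, had -11.26 and -10.73 from 8 and 11 trans-homolog pairs.

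Another high place was singled out after its values were seen, since the rule named only 5 bins. In the bin from 12420001 to 12424000, 12 kb to the right of boundary 2, the score was -9.03 in replicate 1 and -8.75 in replicate 2. Its window held 13 and 17 trans-homolog pairs over 237 and 282 cis pairs. The highest bin and this one lay at opposite ends of domain 3, each 12 kb from a boundary. Other local maxima lay farther from the numbered boundaries. The bin from 12812001, 88 kb from boundary 5, had -9.32 and -9.18 from 27 and 22 trans-homolog pairs. These stood over 511 and 570 cis pairs, a ratio over both replicates of only 4.53% (3.33 to 6.04). Medians over the bins within 4 bins of boundaries 2 and 3 were -9.51 and -9.18 in the pooled map, above the median of the target, -10.06. By replicate they were -9.29 and -9.77 at boundary 2 and -8.88 and -9.43 at boundary 3. Around boundary 4 the median was -10.72 in the pooled map, -11.01 in replicate 1 and -10.46 in replicate 2, and around boundaries 1 and 5 it was -10.07 and -10.22 in the pooled map. Over all 5 boundaries the 45 bins within 4 bins had a higher median than the other 122 bins, by 0.27 in replicate 1, 0.21 in replicate 2 and 0.32 in the pooled map. These bins include the 5 highest, beside boundary 3, and the single boundaries lay on both sides of the median of the target. Boundary 5, the deepest, was at the level of the target as a whole.

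Among domains, the pairing score was highest in domain 3 and lowest in domain 5. Domain 3 had medians of -9.82 and -9.77 in replicates 1 and 2, and domain 5 had -10.43 and -10.36. The difference between the highest and lowest domain was 0.65 in the pooled map, 0.77 in replicate 1 and 0.66 in replicate 2. By replicate, domain 6 was highest in replicate 1 and domain 3 in replicate 2, and domain 5 was lowest in replicate 1 and domain 4 in replicate 2. Domain 1 moved most, from -10.30 to -9.92, and passed from 5th to 2nd. Domain 3 was above domain 5 in both replicates and under each of 5 other settings, by 0.35 to 1.44, whereas the highest and lowest domain changed among these settings. Within domains the pooled score spanned 1.13 to 2.21 between its highest and lowest bin. Spans of single bins and of medians over 19 to 37 bins are not comparable in size.

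Uncorrected counts gave a like order at the low end. Between 3 and 40 kb with both ends in 1 domain, domain 5 had 47 trans-homolog and 1528 cis pairs in replicate 1, a ratio of 3.08% (exact 95% interval 2.25 to 4.11), and 60 and 1824 in replicate 2, a ratio of 3.29% (2.50 to 4.25). It was the lowest domain in both replicates. Domain 4 was next to it in both, with 4.28% and 3.51%. Domain 3 had 189 and 4169 pairs, 4.53% (3.90 to 5.25), and 223 and 4635, 4.81% (4.19 to 5.50). Domains 1 and 2 had 4.71% and 4.84% in replicate 1 and 4.48% and 4.22% in replicate 2, and domain 6 had 4.36% and 3.87%. Intervals of domains 3 and 5 overlapped slightly in each replicate. Less the upper estimate of misassignment in each domain, domain 5 had 2.99% and 3.20% and domain 3 had 4.20% and 4.49%, so the direction held in both replicates. Within single domains, domains 4 and 5 had the fewest trans-homolog contacts per cis contact at these short separations in uncorrected counts. The intervals of domain 4 overlapped those of domains 3 and 6 in each replicate. These ratios leave out contacts between domains 4 and 5. Those numbered 94 trans-homolog and 1251 cis pairs in replicate 1, and 107 and 1333 in replicate 2. Their trans-homolog level was above the expected one, 1.41 and 1.16, so the block as a whole was not poor in trans-homolog contacts. Corrected trans-homolog contacts within domains, over expected, gave another order. Domain 4 had 1.14 in replicate 1 and 1.00 in replicate 2, and domain 5 had 0.81 and 0.95. The lowest was domain 1 in replicate 1, with 0.68, and domain 6 in replicate 2, with 0.75.

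**Figure D5:**
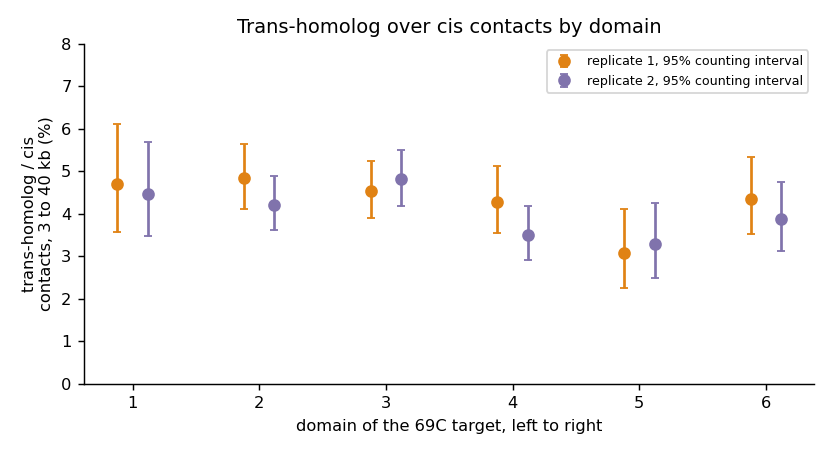
Trans-homolog contacts as a percentage of cis contacts at 3 to 40 kb (vertical axis, from 0) in each of the 6 domains, 1 point for each replicate with its exact 95% counting interval. Domain 5 is lowest in both replicates, at 3.08% and 3.29%, and the intervals of most domains overlap.

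The pairing score followed the cis contacts of the same window only loosely. Over the 167 bins its Pearson correlation with the log2 mean of cis contacts within the same 28 kb was 0.25 in the pooled map, against 0.46 over 5045 bins of 3L. With the number of contacts in the window, a measure of depth, it was 0.08. With the mean cis insulation score it was -0.40, where lower insulation marks a boundary. These bins share windows, libraries and the correction of the map, and the values are given as a description.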

How the data were processed

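The members and all lists were chosen with earlier results of these data known. After trimming, the authors used BWA 0.7.15 to align reads to a diploid genome of the hybrid built on dm3, kept ends mapped uniquely to 1 homolog and removed duplicates, and replicates were deposited separately. The deposited files list the positions, strands and mapping quality of each pair, the latter an aligner score from 1 to 60 in the files. Both ends scored at least 30 in only 32.6% of the target's pairs in replicate 1 and 32.0% in replicate 2. Pairs with both ends on the 5 large arms were used, 24277477 in replicate 1 and 24544367 in replicate 2, with no filter on mapping quality. Ratios of pairs were taken without normalization of counts. Ratios were computed per replicate as mean ± SD (n = 2), and with 1 condition no test across replicates was run. Windows of the target's length were tiled over 3L, and 4 of 36 with fewer than 1000 cis pairs at 3 to 100 kb in a replicate were left out. Maps of 4 kb bins used contacts from 3 kb, a MADmax of 7 and iterative correction over the 5 large arms, written anew, to a relative variance of 1e-05. They held 5264395, 6082272 and, pooled, 11346667 pairs. Each bin's contacts sum to 1 on average. Boundaries and the pairing score (W = 3) were taken from these maps and matched within 4 bins. The named places were the target, boundaries shared by the homologs, the domains between them, the 5 highest and 5 lowest pairing scores, and 5 pairs of 20 kb bins. The boundary and pairing score calculations were run on a simulated arm with evenly spaced boundaries, at a depth not set from these data. Recovery was required for cis boundaries and for the planted pairing difference, and not for trans-homolog boundaries. No dm3 sequence or annotation was used here, so no sequence is printed and no gene was placed. Python 3.11.15, numpy 2.4.6, scipy 1.17.1, pandas and matplotlib 3.10.9 were used.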

Additional observations from a re-analysis of the deposited data

How the results depend on the processing

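The ratio of trans-homolog to cis contacts moved beyond the spread between replicates only with separations of 10 to 100 kb (5.32%), and was 4.51% to 5.01% with 1 replicate left out. The target kept its place among the windows, 28th when the windows were shifted against it. The decay of trans-homolog contacts was 34.9 with a mapping quality of at least 30 and 10.4 with long separations of 50 to 150 kb, and 27.0 to 30.1 with 1 replicate left out. Misassignment was 0.037% with a mapping quality of at least 30 and 0.188% at 200 to 800 bp, and 0.180% to 0.185% with 1 replicate left out. The pairing score of the target relative to 3L turned from -0.13 to 0.21 without iterative correction, 0.062 with contacts from 10 kb and 0.016 with a mapping quality of at least 30, was -0.30 with W = 1, and was -0.157 to -0.047 with 1 replicate left out. The range among domains was 1.10 with W = 1, 1.51 without iterative correction, 0.73 with contacts from 10 kb and 0.53 with a mapping quality of at least 30, and 0.66 to 0.77 with 1 replicate left out. Maternal boundaries numbered 13 with a window of 5 bins, 8 with a prominence of 0.1, 11 without iterative correction and 12 with a mapping quality of at least 30, paternal ones 13 with a window of 5 bins, and trans-homolog ones 21 with a window of 5 bins, 23 with a prominence of 0.1 and 17 with a mapping quality of at least 30. With 1 replicate left out they numbered 5 to 7, 6 to 8 and 14 to 15. The cause of these shifts was not tested. No paired analysis was possible because there was 1 group. The 1401 and 1438 trans-homolog pairs of the target limit what single bins can show.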
